A study of Caenorhabditis elegans with 17 samples.

Results

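The 10 core autophagy genes *lgg-1*, *lgg-2*, *bec-1*, *unc-51*, *atg-7*, *atg-9*, *atg-18*, *sqst-1*, *epg-5* and *hlh-30* were chosen by name, and all 10 were found among the 21459 genes of the deposited oocyte mRNA table. RNA came from oocytes cut by hand from wild-type *C. elegans* adults, with a little gonadal sheath still attached. The labels list 17 libraries, 8 from mothers kept on 300 mM NaCl culture from the last larval stage to the first day of adulthood and 9 from mothers kept on control NGM culture over the same time. Per the paper's supplement a replicate was the oocytes of a single animal, with 3 replicates per condition. The labels give each group 3 replicate numbers with letters within them. How the lettered libraries relate to the replicates of the supplement is not given in the sources used here.

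What the table gives for a gene outside the authors' own comparison is a single value, the mean normalized count. This is the authors' average, over all libraries entered and both treatments together, of read counts divided by a size factor for each library. All levels below are that mean, and they describe how much mRNA of each gene the oocyte preparations held. They do not separate 300 mM NaCl from control, and the fold changes and p-values of the authors' comparison were not used. Since single libraries are not given, the levels have no replicate error, library depths are not known here and neither genes nor treatments were tested against each other.

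Autophagy encloses cytoplasm in a double membrane, the autophagosome, and delivers it to the lysosome for breakdown. The ULK kinase UNC-51 starts the process, the lipid kinase complex that holds BEC-1 marks the growing membrane, and ATG-9 and ATG-18 help it to grow. The enzyme ATG-7 activates the ubiquitin-like proteins LGG-1 and LGG-2 for attachment to membrane lipid, SQST-1 is a receptor that brings cargo, EPG-5 promotes fusion with late endosomes and lysosomes, and HLH-30 is a transcription factor that activates autophagy and lysosome genes. In *C. elegans* the pathway is known for clearing germ granule proteins from somatic cells of the embryo and sperm mitochondria from the fertilized egg.

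The 10 genes differed widely in size. Where reads cover whole mRNAs, a longer mRNA gives more fragments at the same number of molecules. Levels are therefore compared between genes per kilobase of annotated exon. Whether reads covered long mRNAs evenly cannot be told from a mean count. On the WBcel235 assembly 5 of the genes lie on chromosome IV, 3 on V and 2 on II, with 8 on the reverse strand and none on X. *lgg-1*, the smallest, holds 708 exon bases and encodes 123 residues (II from 6346960 to 6347719). *lgg-2* encodes a protein of 142 residues in its longest isoform (IV from 10934196 to 10935903). The largest, *epg-5*, holds 7291 exon bases in 23 coding exons and encodes 2353 residues (II from 6598344 to 6609365). Exons fill more than 50% of the span in 6 of the genes, and *hlh-30* is the most open (IV from 4014793 to 4034951). It spans 20159 bases with an intron of 8295 bases, its exons fill 16% of that span, and 13 transcripts are annotated for it.

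**Figure D1:**
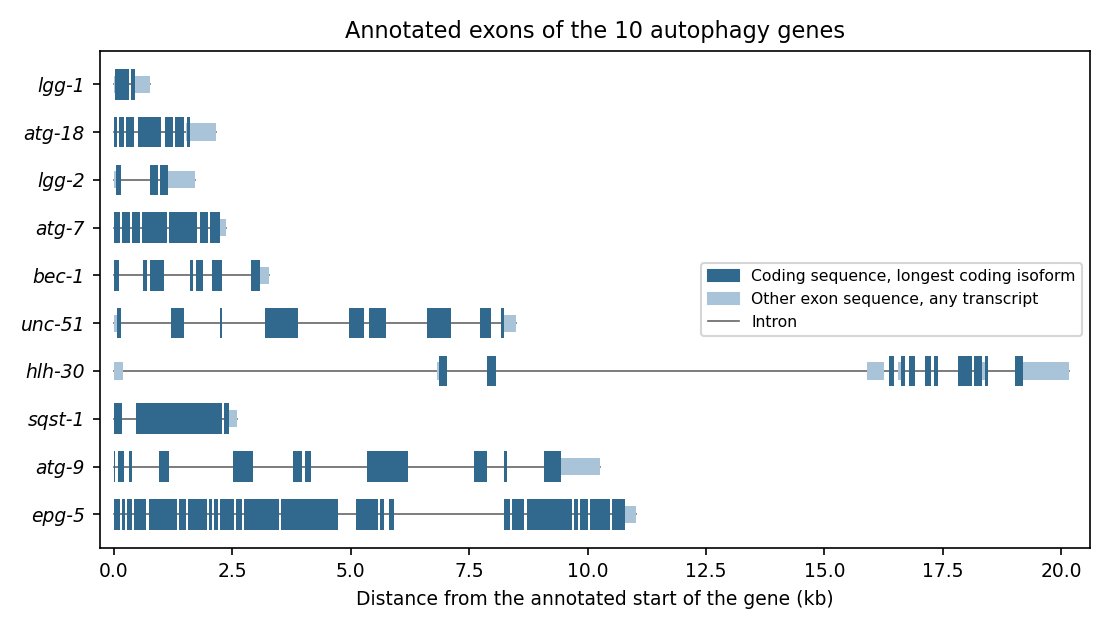
Annotated exons of the 10 autophagy genes, drawn to scale as distance from the gene's start in kilobases, in order of level from the highest (top) to the lowest. Dark blocks are the coding sequence of the longest coding isoform, light blocks are other exon sequence and lines are introns; *lgg-1* fits within 760 bases and *hlh-30* spans 20159.

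The remaining genes lie at these positions. *bec-1* lies on IV from 5661141 to 5664425, *atg-7* on IV from 11078682 to 11081055 and *sqst-1* on IV from 12034282 to 12036891. *unc-51* lies on V from 19995986 to 20004485, *atg-9* on V from 349385 to 359658 and *atg-18* on V from 8629174 to 8631327. Of the 10 genes, 7 overlap no other annotated gene. *bec-1* and *hlh-30* overlap only non-coding RNA genes that share 0 bases with their exons. *epg-5* shares 8 exon bases with *vps-33.2* on the opposite strand, a gene with a mean normalized count of 1201 against 89.6 for *epg-5*, and the sources do not state whether the counting used strand.

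The mRNAs of the 10 genes spanned a wide range, with *lgg-1*, *atg-18* and *lgg-2* high, *atg-7*, *bec-1*, *unc-51* and *hlh-30* in the middle, and *sqst-1*, *atg-9* and *epg-5* low. Each was ranked among the 10562 protein-coding genes whose mean normalized count reached 10. These coding genes had a median of 146 per kilobase. All 10 autophagy genes passed the minimum. Of the 10, 6 lay above the median of coding genes, 3 above percentile 75 and 2 (*atg-9* and *epg-5*) below percentile 25. Without division by length those 2 lay at percentiles 27.6 and 37.3, and with no minimum, which adds low genes to the ranking, at 46.0 and 45.7. The median of the 10 genes was 200 per kilobase, at percentile 56.5. Together the means of the 10 genes came to 4219 normalized counts, or 0.0956% of the sum over the table.

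**Figure D2:**
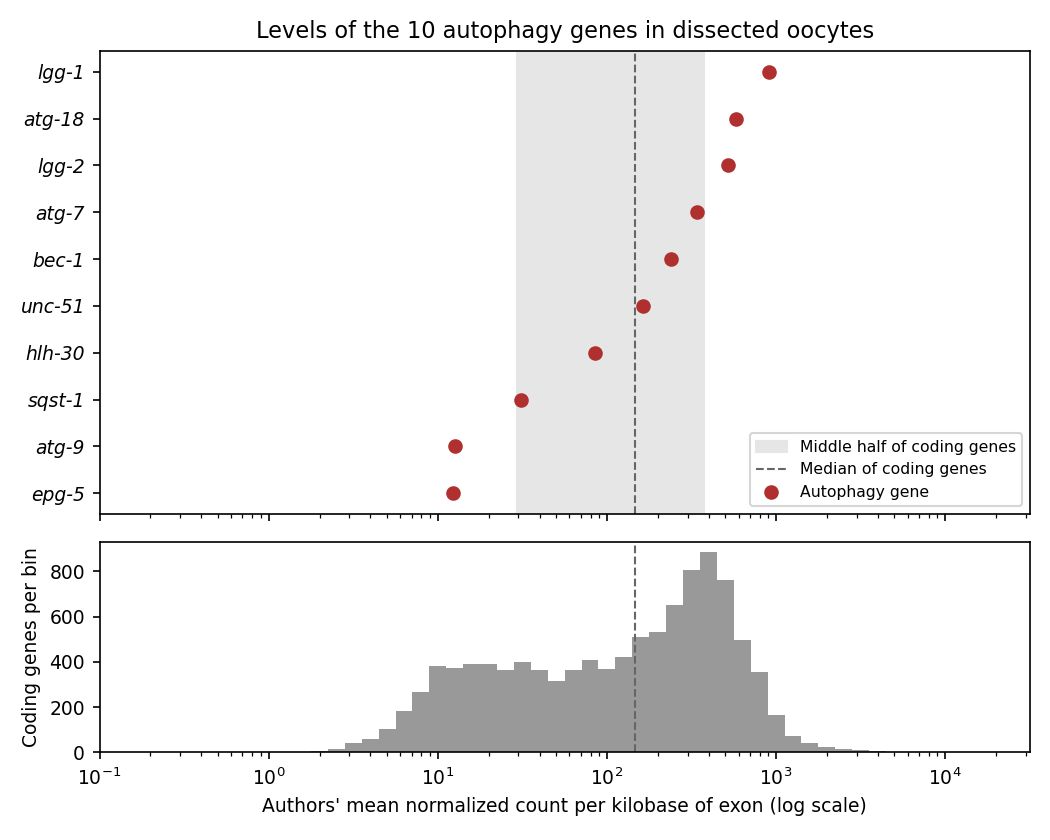
The authors' mean normalized count per kilobase of exon (log axis) for the 10 autophagy genes (top, red points) above a histogram of the 10562 coding genes ranked (bottom, number of genes per bin). The dashed line is the coding median of 146 and the grey band runs between the coding genes at percentiles 25 and 75, from 29.3 to 373; 3 genes lie above the band and 2 below it, and no error is shown because each point is a single mean over all libraries.

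Initiation and nucleation were represented by 2 genes near the middle of the range. *unc-51*, which encodes the kinase that opens the pathway, had a mean normalized count of 471, or 163 per kilobase, at percentile 52.2. *bec-1*, the Beclin homolog of the lipid kinase complex, had a mean normalized count of 318, or 238 per kilobase, at percentile 60.8. Per kilobase the level of *bec-1* was 1.46 times that of *unc-51*, whereas before division by length it was 0.67 times, since the exons of *unc-51* hold 2897 bases and those of *bec-1* 1335.

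All 3 conjugation genes lay above the coding median. *lgg-1*, the GABARAP homolog that marks autophagosomes in the worm, had a mean normalized count of 640, or 904 per kilobase, which placed it at rank 321 of the 10562 coding genes (percentile 97.0). *lgg-2*, the LC3 homolog, had a mean normalized count of 540, or 519 per kilobase, at percentile 86.5. *atg-7*, the E1-like enzyme that activates both, had 715, or 343 per kilobase, at percentile 71.9. The 2 ubiquitin-like genes were close before scaling, with *lgg-1* at 1.19 times *lgg-2*, and 1.74 times apart per kilobase of exon. Per kilobase of coding sequence, which leaves out the 3′ UTRs of 303 bases in *lgg-1* and 568 bases in *lgg-2*, *lgg-1* was 1.37 times *lgg-2*, and per kilobase of gene span 2.67 times.

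The 2 members that act in membrane growth lay at opposite ends. *atg-18*, which encodes a WIPI-family protein that binds the lipid made by the BEC-1 complex, had the highest mean of the 10 genes before scaling, 1052 normalized counts, or 584 per kilobase at percentile 89.7. *atg-9*, which encodes the membrane-spanning protein of the pathway and whose mammalian and yeast homologs are lipid scramblases, had the lowest mean of the 10, 45.4 normalized counts, or 12.6 per kilobase at percentile 11.8. The level of *atg-18* per kilobase of exon was 46.1 times that of *atg-9*, with 23.2 times undivided and 111 times per kilobase of gene span.

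The genes for cargo, fusion and transcription lay below the coding median. *sqst-1*, the homolog of the mammalian receptor p62, had a mean normalized count of 69.6, or 30.9 per kilobase, at percentile 25.8. *epg-5*, whose mRNA is the longest of the 10, had 89.6, or 12.3 per kilobase at percentile 11.4, and percentile 37.3 undivided. *hlh-30*, the TFEB homolog, had 279, or 85.3 per kilobase, at percentile 41.3. *lgg-1* mRNA per kilobase of exon was 29.3 times the level of *sqst-1*, with 9.20 times undivided and 51.8 times per kilobase of coding sequence. It was 73.6 times the level of *epg-5*, with 7.14 times undivided and 137 times per kilobase of coding sequence.

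In order per kilobase the genes ran *lgg-1*, *atg-18*, *lgg-2*, *atg-7*, *bec-1*, *unc-51*, *hlh-30*, *sqst-1*, *atg-9* and *epg-5*. The smallest steps in that order were between *atg-9* and *epg-5*, 1.03-fold, and between *atg-18* and *lgg-2*, 1.12-fold. The largest were from *hlh-30* to *sqst-1*, 2.76-fold, and from *sqst-1* to *atg-9*, 2.44-fold. Whether neighbours differ beyond the spread between animals cannot be told, because the mean carries no spread. Dividing by the longest transcript kept all 10 places. With coding length *lgg-2* passed *atg-18*, and the other 8 kept their places. With the whole gene span, which includes introns that spliced mRNA lacks, *sqst-1* passed *hlh-30* and *epg-5* passed *atg-9*. Without division by length only *hlh-30* kept its place, *atg-18* was first and *lgg-1* the third.

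**Figure D3:**
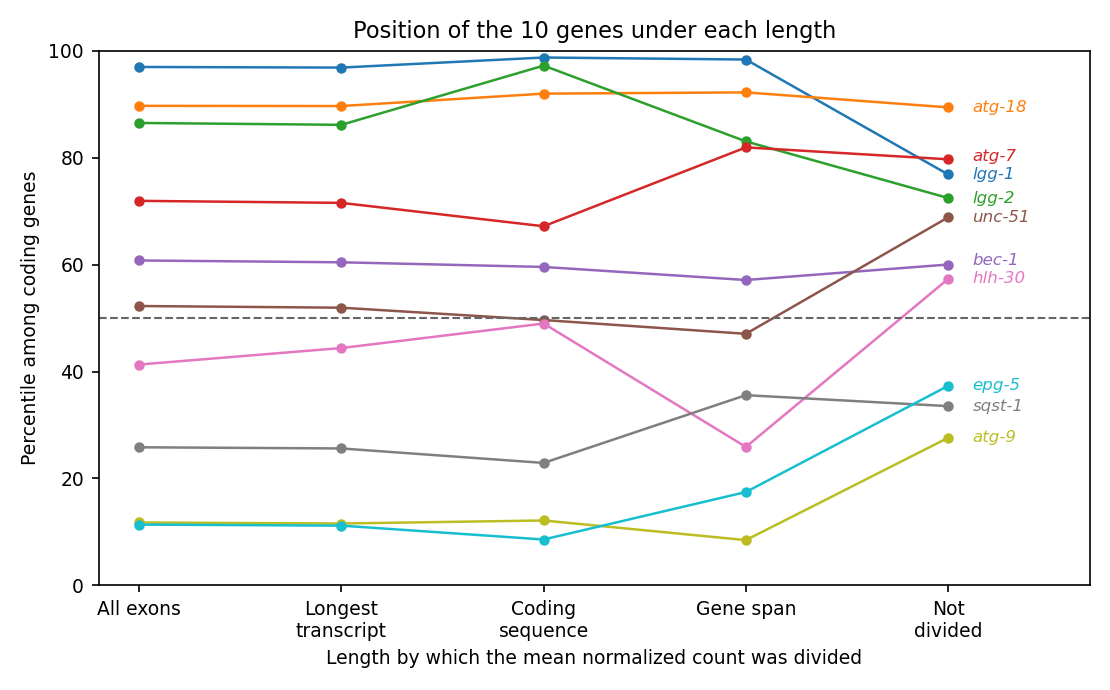
Percentile of each of the 10 genes among coding genes (vertical axis) when the authors' mean normalized count was divided by the length named on the horizontal axis, or by none. *hlh-30* moved most among the lengths, with percentile 41.3 for all exons, 49.0 for coding sequence and 25.9 for gene span, while *sqst-1*, *atg-9* and *epg-5* stayed below percentile 50 throughout.

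Among the 10 genes the shorter ones had the higher levels. Spearman's rho between exon length and the level per kilobase was -0.90 over the 10 genes, against -0.50 over the 52 genes of the wider pathway list described below and -0.13 over the 10562 coding genes. Since the level was divided by that length, the same was computed for the undivided mean, where rho was -0.67 over the 10 genes, but 0.13 over the wider list and 0.29 over coding genes. These are descriptions across genes, which are not independent replicates, and the 10 genes were not picked at random.

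Genes that mark the oocyte were among the most abundant in the table, as the label of the samples has it. All 8 oocyte markers listed (among them the yolk receptor gene *rme-2* and the eggshell gene *cbd-1*) lay between 839 and 1588 per kilobase, with the lowest of them at percentile 96.0. *lgg-1* lay within that range and the other 9 autophagy genes below it. Markers of other cells were also listed above 0. The 5 gonadal sheath markers ran from 29.1 (*ceh-18*) to 1117 (*inx-8*) per kilobase. Of the autophagy genes 8 lay within that sheath range, 2 below it and 0 above it. The 5 body muscle markers, some of which the contractile sheath also uses, ran from 48.4 to 384. Against the body muscle range, 3 autophagy genes lay above, 4 within and 3 below.

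The low autophagy genes also did not stand clear of the intestine markers. The 6 intestine markers ran from 1.42 (*pept-1*) to 74.4 (*vit-2*) per kilobase, and 7 of the 10 autophagy genes exceeded all of them. The other 3, *sqst-1*, *atg-9* and *epg-5*, lay inside that range. Before division by length *bec-1* and *hlh-30*, at 318 and 279, also lay below *vit-2* at 367. Per kilobase *atg-9* and *epg-5* also lay inside the range of the 5 sperm markers, 1.75 to 19.4. They lay inside that of the 4 neuron markers found of 5 listed too, 0.88 to 22.6. Before division by length both genes, at 45.4 and 89.6, exceeded every sperm and neuron marker. The highest of these were *fer-1* at 43.1 and *rab-3* at 33.0. Whether the reads of the autophagy genes came from the oocyte, from the attached sheath or from other cells was not tested. In such bulk preparations fewer cells of a type and less RNA per cell cannot be told apart.

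**Figure D4:**
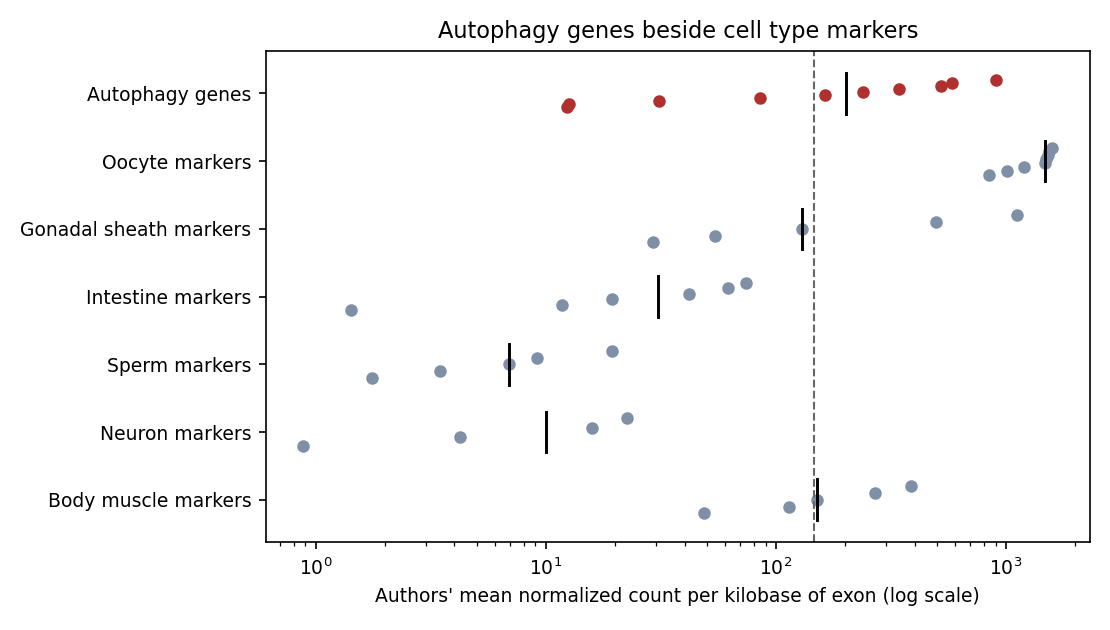
The authors' mean normalized count per kilobase of exon (log axis) for the 10 autophagy genes (red) above 6 lists of cell type markers (blue-grey), 1 point per gene, with a black bar at each list's median and the dashed line at the coding median of 146. The oocyte markers lie from 839 to 1588, and *sqst-1*, *atg-9* and *epg-5* lie among the intestine markers. Of the 10 autophagy genes, 8 lie within the range of the gonadal sheath markers and 2 below it.

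The 10 genes are part of a wider list of 52 genes of the pathway, all of which were in the table with a mean of at least 10. The list was chosen with earlier results of these data known. Of the other 42 genes, 31 lay above the coding median, 14 above percentile 75 and 3 below percentile 25. Their median was 261 per kilobase at percentile 63.4, beside percentile 56.5 for the 10.

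**Figure D5:**
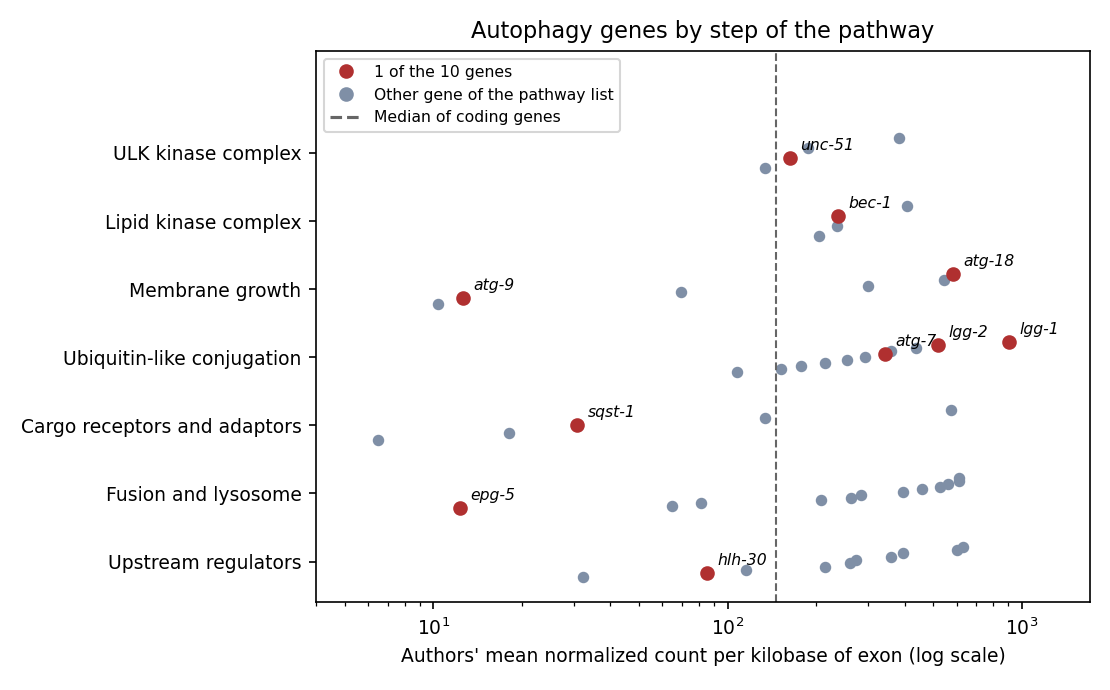
The authors' mean normalized count per kilobase of exon (log axis) for the 52 genes of the pathway list, by the step in which they act; red points are the 10 autophagy genes, blue-grey points the other 42, and the dashed line is the coding median of 146. The conjugation genes run from 108 to 904, and the 5 lowest points are *epg-5*, *atg-9*, 1 unlabelled membrane growth gene and 2 unlabelled cargo genes.

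By step, *unc-51* was one of 4 genes of the ULK kinase complex, which lay between 134 (*epg-7*, a scaffold) and 383 per kilobase (*atg-13*, a regulatory subunit also known as *epg-1*). *bec-1* was one of 4 genes of the lipid kinase complex, all above the coding median, from 204 (*vps-34*, the catalytic subunit) to 408 (*epg-8*, the ATG14 homolog). *bec-1* was 0.58 times *epg-8*. It was 1.17 times *vps-34* per kilobase of exon, 0.56 times undivided and 0.84 times per kilobase of gene span. None of the 8 genes of these complexes lay below percentile 25.

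Conjugation, the step of *lgg-1*, *lgg-2* and *atg-7*, was present throughout. Of its 11 genes, 10 lay above the coding median, none lay below percentile 25, and the median was 293 per kilobase. *lgg-1* was the highest of the 11 and *atg-10*, an E2-like enzyme, the lowest at 108.

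Membrane growth was split. *atg-18* was its highest gene and *epg-3*, the VMP1 homolog, its lowest at 10.4 per kilobase, close to *atg-9* at 12.6. *epg-6*, another WIPI-family gene, had 301 per kilobase. Of the 6 genes, 3 lay above the coding median, and *atg-9* and *epg-3* lay below percentile 25.

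The cargo step had the lowest median of the 7 steps, 30.9 per kilobase over 5 genes, which is the value of *sqst-1* itself. Its lowest gene was *sepa-1*, at 6.47 per kilobase and percentile 3.19, which encodes an adaptor for germ granule proteins in the embryo. The highest was *allo-1*, which encodes the adaptor for sperm-derived organelles in the fertilized egg, at 575 per kilobase and percentile 89.3. *allo-1* was 18.6 times *sqst-1* per kilobase of exon and 11.1 times undivided, and it was the only gene of the 5 above the coding median.

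*epg-5* differed from most genes of fusion and the lysosome, where 9 of 12 lay above the coding median and 6 above percentile 75. It was the lowest of the 12 and the only one below percentile 25. The highest, *rab-7*, the small GTPase of late endosomes, had 613 per kilobase, against 12.3 for *epg-5*. *epg-5* was 0.02 times *rab-7* per kilobase of exon and 0.18 times undivided.

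Among the 10 upstream regulators, *hlh-30* was the second lowest. The lowest was *mxl-3*, a transcription factor known to oppose HLH-30 at lysosomal lipase genes, at 32.2 per kilobase, and the highest was *ragc-1*, a Rag GTPase of the TOR pathway, at 629. *hlh-30* was 2.65 times *mxl-3* per kilobase of exon and 8.58 times undivided, but 0.50 times it when the gene span was used. *let-363*, the TOR kinase gene that restrains autophagy, was 4.22 times *hlh-30* per kilobase of exon, and between 2.15 times (coding sequence) and 12.6 times (gene span) on the other scales.

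Chromosome position was also tabulated. None of the 10 is X-linked, against 8 of the 52 listed genes and 12.4% of the coding genes ranked. The 8 X-linked genes of the list had a median of 134 per kilobase and the 44 autosomal ones 279. Over all coding genes the medians were 69.6 on X and 169 on the autosomes.

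For scale, 2 other systems of protein turnover were set beside the 10 genes, chosen by gene name after the table had been seen. The 10 autophagy genes had a median of 200 per kilobase, whereas 33 proteasome subunit genes had a median of 827 at percentile 95.8. The 21 genes of the V-ATPase, the proton pump that acidifies lysosomes, had a median of 496 at percentile 85.0. Of the 10 genes only *lgg-1* exceeded the proteasome median.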

How the data were processed

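The labels name a stranded total RNA kit. Per the paper's methods, WBcel235 was the genome for alignment and STARsolo gave the gene counts. A gene needed 10 reads in total to be kept, and the authors fitted their comparison in DESeq2. The lowest mean normalized count deposited was 0.031, and whether that minimum was applied to the deposited values cannot be told here. The submitters' processing notes also name STAR and kallisto. Versions, strand setting, the libraries entered and any use of intron reads are not given in the sources used here. The mean normalized count deposited by the authors is a signal averaged over libraries after division by size factors. The other value columns hold the authors' own fold changes, standard errors, Wald scores and p-values, and were not used. No column holds single libraries.

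Exon unions, transcript, coding and gene lengths and overlaps came from Ensembl release 115 of the WBcel235 annotation, which matched 21399 of 21459 identifiers. The mean was divided by exon kilobases and ranked among the 10562 protein-coding genes whose mean reached 10. A percentile is the percent of these genes with a lower value plus 0.5 of those with the same value, the gene itself included. The ranking, exon union and overlap search were tested on simulated data. The text names the 10 genes and the highest and lowest gene of each pathway step, and others where a comparison turns on them. The marker lists give their own genes. The 10 genes and lists were chosen with earlier results of these data known. The planned search for HLH-30 motifs in promoters was not run, since no genome sequence was used here. Tables were handled with pandas 2.3.3 and numpy 2.4.6 in Python 3.11.15, with scipy 1.17.1 also loaded, and plots were made with matplotlib 3.10.9.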

Additional observations from a re-analysis of the deposited data

How the results depend on the processing

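No paired analysis was possible because the only usable column is a mean over both treatments, without replicate numbers. Tests on counts per library with other tools, normalizations or filters on library counts, and fits without a replicate, were therefore not run, nor was the motif search. What library depth limits could not be assessed.

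The median percentile of the 10 genes, 56.5, was 54.6 per kilobase of coding sequence, 64.4 without division by length, and 69.1 over the 7 genes without an overlapping gene, ranked among 5678 such coding genes. It was 72.2 when a mean of 1 sufficed for ranking and 74.1 without a filter, where 16524 and 17713 genes were ranked and more low genes lay below each member. With the gene span, chosen after seeing the data, it was 52.1. The median percentile of the 52 listed genes, 63.0, was 76.4 when a mean of 1 sufficed and 78.0 without a filter. With the longest transcript the median percentile was 56.2 for the 10 genes and 62.9 for the 52. Single genes crossed percentile 50 in 6 settings. *unc-51*, at 52.2, was at 49.6 for coding sequence, 47.1 for gene span and 48.5 among genes without overlap. *hlh-30* was at 57.3 without division by length. Without a filter *hlh-30* was at 65.0 and *sqst-1* at 55.7, and both also crossed when a mean of 1 sufficed. *atg-9* and *epg-5*, at 11.8 and 11.4, rose most, to 42.1 and 41.8 when a mean of 1 sufficed and to 46.0 and 45.7 without a filter, and were at 27.6 and 37.3 without division by length.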
